A study of Mus musculus with 8 samples.

Results

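Messenger RNA levels of 34 genes of cholesterol synthesis, fatty acid synthesis and lipid transport were compared between lungs of 4 wild-type mice and 4 mice labelled Fra-2 over-expressing (Fra-2 TG). The genes were chosen by name from these pathways, with earlier results of the same arrays known, and all 34 were found among the 20863 named genes measured. They comprise 12 enzymes of sterol synthesis, 5 regulators of sterol sensing, 11 enzymes of fatty acid synthesis and 6 genes of lipid transport. All 8 mice were of the C57BL/6 background and 8 weeks of age, and whole-lung RNA of each was hybridised to its own single-colour Agilent array. Fra-2, encoded by Fosl2, is a transcription factor of the AP-1 family. The labels do not name the promoter that drives the transgene, so which lung cells carry the extra Fra-2 is unknown here. The numbered mice are separate animals per the labels.

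Lung makes and moves lipid on a large scale, because surfactant, the film that keeps alveoli open, is mostly phospholipid with some cholesterol. Cells make cholesterol from acetyl-CoA through mevalonate, isoprenoid phosphates, squalene and lanosterol. They make fatty acids from the same acetyl-CoA through malonyl-CoA. Both pathways are controlled by SREBP transcription factors, which the escort protein Scap carries out of the endoplasmic reticulum when sterol is low and which Insig proteins hold back when sterol is high. Excess sterol activates the LXR nuclear receptors, which raise export pumps such as Abca1 and Abcg1.

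Of the 34 genes, 1 rose and 0 fell in transgenic lung at a limma p adjusted over all genes under 0.05, the threshold used throughout. The gene that rose was Abcb4. Over all genes measured, 0.125% were called higher and 0.0911% lower. An unadjusted limma p under 0.05 was found for 3 of the 34 with higher means (Abcb4, Pltp and Scd1) and for 3 with lower means (Sqle, Idi1 and Insig1), against 5.33% and 3.82% of all genes. The transgenic values lay wholly above the wild-type values in 3 of the 34 genes (Abcb4, Pltp and Scd1) and wholly below them in 1 (Sqle), where 3.99% and 2.54% of all genes did so. A count of 1 is 2.94% of the 34 genes and a count of 3 is 8.82%. These counts are small, and the genes were chosen with earlier results known. Whether the shares differ from the background was not tested. The median difference, transgenic minus wild type, was -0.04 over the 34 genes and 0.01 over all genes on the log2 scale.

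**Figure D1:**
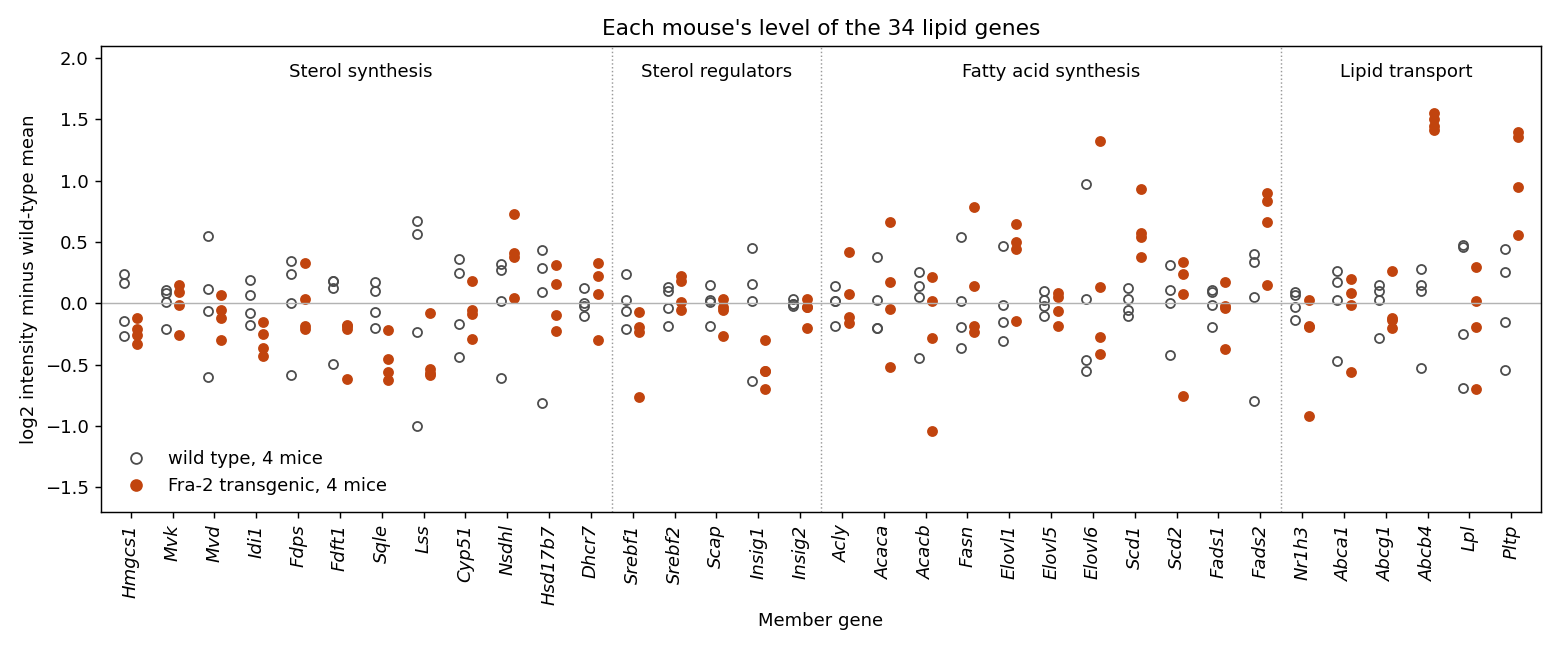
Level of each of the 34 genes in each mouse, as log2 intensity minus the gene's wild-type mean, with open circles for the 4 wild-type mice and filled circles for the 4 transgenic mice. In Abcb4, Pltp and Scd1 every transgenic mouse lies above every wild-type mouse, in Sqle every one lies below, and in the other 30 genes the groups overlap.

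Abcb4 encodes a transporter that moves phosphatidylcholine, the main surfactant phospholipid, across membranes; it is best known for secreting that lipid into bile. On the log2 scale, wild-type mice 1 to 4 stood at 9.65, 9.79, 9.61 and 8.98, and transgenic mice 1 to 4 at 10.95, 10.93, 11.06 and 11.01. The 4 transgenic values lay within a narrow band, 1.14 above the highest wild-type value, and wild-type mouse 4 was the lowest of all. The mean went from 9.51 ± 0.36 to 10.99 ± 0.06 (SD, n = 4 each), a 2.79-fold rise with a log2 difference of 1.48 (SE 0.18, 95% interval 1.06 to 1.90, limma adjusted p = 0.0215). By p-value it ranked 34 among the 20863 genes. The exact two-sided permutation p was 0.0286, the smallest that 4 mice against 4 can give. In RNA from whole lung, more RNA per cell and more cells that contain it cannot be told apart. The call was lost when any mouse but wild-type mouse 4 was left out, with limma adjusted p-values from 0.0501 to 0.107 and differences from 1.45 to 1.57. It was kept without wild-type mouse 4 (difference 1.30, limma adjusted p = 0.0134) and without both mice numbered 4 (1.29, limma adjusted p = 0.0361). The mice numbered 4 had the lowest median correlation with their own group (0.966 in wild type, 0.971 in transgenic). All other arrays stood at 0.976 to 0.977. Over all genes, wild-type mouse 4 was lowest of its group in 33.7% and transgenic mouse 4 in 34.7%.

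**Figure D2:**
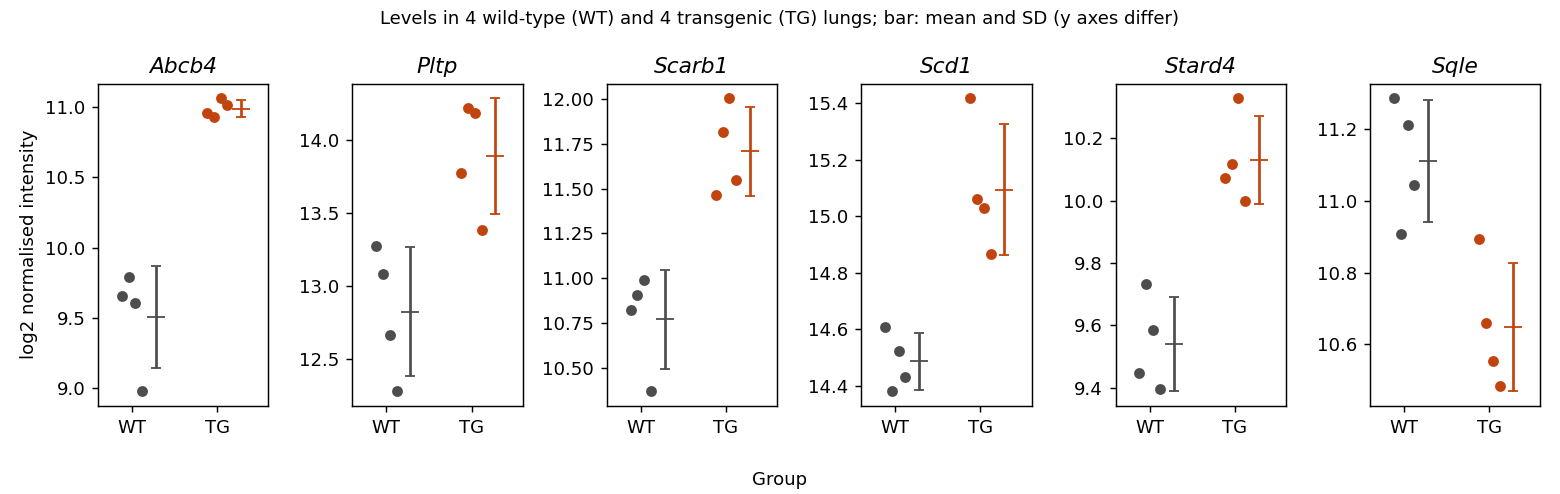
Log2 normalised intensity of 6 genes in each wild-type (WT) and transgenic (TG) lung, with the mean and SD beside the points; the y axes differ. The groups do not overlap in any of the 6 genes, and the gap is widest for Abcb4, at 1.14 on the log2 scale.

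Abcb4 lies on chromosome 5 directly beside Abcb1b and Abcb1a, its closest relatives, which encode drug-exporting P-glycoproteins. These neighbours were examined after their values were seen. For Abcb1a, wild-type mice 1 to 4 stood at log2 levels of 10.19, 9.68, 10.12 and 9.21, and transgenic mice 1 to 4 at 10.84, 10.85, 11.29 and 10.19. For Abcb1b they stood at 8.22, 7.87, 7.78 and 7.23, and at 8.57, 8.62, 8.64 and 8.39. In both genes the 4 transgenic values lay above the 4 wild-type values, though for Abcb1a by 0.003 only. The log2 differences were 1.00 (SE 0.29) for Abcb1a and 0.78 (SE 0.20) for Abcb1b, and neither passed over all genes (limma adjusted p = 0.342 and 0.273). Each of the 3 genes was read by 1 spot. The 3 genes are related in sequence, the spots' own sequences were not used here, and whether a spot reads RNA of more than 1 of them was not tested. The transgenic values of Abcb4 were spread over 10.93 to 11.06, while those of Abcb1a ran from 10.19 to 11.29.

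Beyond this cluster, 6 further protein-coding neighbours were measured. On the Abcb1a side, Rundc3b differed by 0.19 (SE 0.15), Slc25a40 by 0.29 (SE 0.20) and Dbf4 by 0.41 (SE 0.18). On the other side, Crot, a carnitine transferase for fatty acids, differed by 0.08 (SE 0.13), Tmem243 by 0.18 (SE 0.20) and Dmtf1 by -0.61 (SE 0.27). None of the 6 passed (limma adjusted p between 0.552 and 0.880), and the groups overlapped in 5 of them, Dbf4 being the exception.

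**Figure D3:**
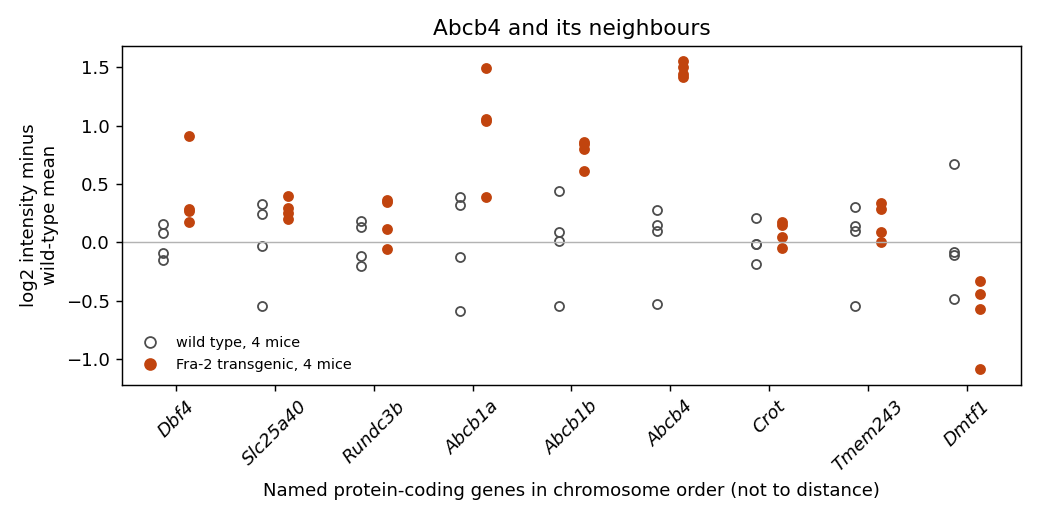
Log2 intensity minus the wild-type mean for Abcb4 and 8 neighbouring genes in their order along chromosome 5, with open circles for wild-type and filled circles for transgenic mice. Abcb4, Abcb1b and Abcb1a stand next to each other with differences of 1.48, 0.78 and 1.00, and the genes on either side differ by -0.61 to 0.41.

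The bases before the start sites of these 3 adjacent genes are shown because the genes' transgenic values lay high together. The sequences are RefSeq's for GRCm38.p6, on the plus strand, at chr5:8893471-8893613 for Abcb4, chr5:8566841-8567090 for Abcb1a and chr5:8797897-8798146 for Abcb1b. The Abcb4 stretch is shorter than the other 2, at 143 bases, because the 107 bases of its window that lie inside the annotated gene are left out. Capitals mark matches to a CCAAT box (CCAAT on either strand), a nuclear receptor half-site (AGGTCA), a sterol regulatory element (TCACNCCAC) or an AP-1 site (TGANTCA), the type of site that Fra-2 dimers bind.
Abcb4: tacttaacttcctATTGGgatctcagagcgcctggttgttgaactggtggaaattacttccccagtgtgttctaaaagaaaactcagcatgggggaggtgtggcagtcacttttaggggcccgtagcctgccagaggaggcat
Abcb1a: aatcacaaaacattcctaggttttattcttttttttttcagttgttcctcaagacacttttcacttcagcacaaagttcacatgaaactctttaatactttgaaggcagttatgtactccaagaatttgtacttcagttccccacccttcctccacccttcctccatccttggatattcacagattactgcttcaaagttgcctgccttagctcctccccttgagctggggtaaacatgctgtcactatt
Abcb1b: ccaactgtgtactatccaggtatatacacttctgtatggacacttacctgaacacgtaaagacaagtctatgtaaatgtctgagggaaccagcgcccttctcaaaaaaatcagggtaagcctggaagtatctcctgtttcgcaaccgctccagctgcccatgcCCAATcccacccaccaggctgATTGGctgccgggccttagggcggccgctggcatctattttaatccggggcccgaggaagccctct
The Abcb4 stretch held 1 CCAAT box and the Abcb1b stretch 2, while in the Abcb1a stretch none of the 4 motifs was found. No match to the AP-1 letters lay in any of the 3 stretches, or in the full window of Abcb4; that says only that these letters are not there. Over the 32851 RefSeq windows of 250 bases before a start site, 33.8% held a CCAAT box, 14.0% the half-site, 6.75% an AP-1 site and 1.05% the sterol regulatory element, counting both strands. Among the 26 of 34 genes with a window in that table, 1 held the AP-1 letters, Dhcr7.

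Pltp encodes the phospholipid transfer protein, which moves phospholipid between lipoproteins and is made in lung. Its log2 level was 13.27, 13.08, 12.67 and 12.28 across wild-type mice 1 to 4, against 13.77, 14.22, 14.18 and 13.38 across transgenic mice 1 to 4. The transgenic values lay above the wild-type values by a gap of 0.11, and the mice numbered 4 were lowest in both groups. The log2 difference was 1.07 (SE 0.27, 95% interval 0.44 to 1.69), equal to 2.09-fold, and did not pass over all genes (limma adjusted p = 0.253). With 1 mouse left out it ran from 0.88 to 1.24.

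The other 4 lipid transport genes differed little on average. Nr1h3, which encodes LXR-alpha, differed by -0.32 (SE 0.21), with transgenic mouse 4 at 10.76 and all other mice between 11.49 and 11.78. The cholesterol exporters Abca1 and Abcg1 differed by -0.07 (SE 0.22) and -0.05 (SE 0.15). Lpl, the lipase that frees fatty acids from circulating triglyceride, differed by -0.14 (SE 0.32), and its values spread from 11.88 to 13.06 in wild-type and from 11.88 to 12.87 in transgenic mice. Their limma adjusted p-values ran from 0.685 to 0.947. The median of the 6 transport genes was -0.06, with 2 differences positive and 4 negative. It turned positive without wild-type mouse 3 (0.0048), without transgenic mouse 4 (0.07) and with neither mouse numbered 4 (0.08).

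Among 25 further genes of lipid uptake, transport and storage, 0 passed over all genes (2 at an unadjusted limma p under 0.05), and their median difference was -0.04. Scarb1, the receptor that takes up cholesterol from high-density lipoprotein, came closest. Its log2 level was 10.82, 10.90, 10.99 and 10.37 across wild-type mice 1 to 4, against 11.47, 11.82, 12.01 and 11.55 across transgenic mice 1 to 4, all above the wild-type range. Its difference was 0.94 (SE 0.19, limma adjusted p = 0.150), and a second, dimmer Scarb1 spot differed by 1.10 (SE 0.48). Fabp5, a fatty acid binding protein, differed by 0.62 (SE 0.23) with a gap of 0.03 between the groups. Angptl4, which inhibits lipoprotein lipase, differed by -0.69 (SE 0.31), and Abca3, which loads phospholipid into the surfactant granules of alveolar type 2 cells, by -0.40 (SE 0.18). Every transgenic Abca3 value (13.55 to 14.27) lay below the wild-type range (14.28 to 14.56), though only just, while the Angptl4 groups overlapped. None of these 4 genes passed (limma adjusted p from 0.150 to 0.570).

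In the sterol pathway, 0 of 12 enzymes passed over all genes in either direction (by limma; 2 lower at an unadjusted p under 0.05). Of the 12 differences 9 were negative, the range was -0.46 to 0.39 and the median -0.08, against 47.6% negative and a median of 0.01 over all genes. The median turned to 0.03 without wild-type mouse 1 and was -0.25 when wild-type mouse 4 was dropped and -0.30 when transgenic mouse 4 was dropped too. Sqle, squalene epoxidase, which makes the first oxygenated sterol precursor, stood at log2 levels of 11.29, 10.91, 11.21 and 11.04 across wild-type mice 1 to 4, against 10.89, 10.66, 10.55 and 10.48 across transgenic mice 1 to 4. The highest transgenic value lay 0.01 below the lowest wild-type value. Its difference was -0.46 (SE 0.14, 95% interval -0.79 to -0.14, limma adjusted p = 0.362).

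Earlier steps showed small differences. Hmgcs1, which makes HMG-CoA at the entry of the pathway, differed by -0.23 (SE 0.15). Mvk, mevalonate kinase, and Mvd, the decarboxylase further on, differed by -0.01 (SE 0.14) and -0.10 (SE 0.23). Idi1, which interconverts the isoprenoid building blocks, stood at 11.39, 11.15, 11.52 and 11.25 across wild-type mice, against 11.17, 10.89, 10.97 and 11.08 across transgenic mice, so that only transgenic mouse 1 reached the wild-type range. Its difference was -0.30 (SE 0.13, limma adjusted p = 0.541). Fdps, which builds farnesyl diphosphate, differed by -0.01 (SE 0.23), and Fdft1, which joins farnesyl units into squalene, by -0.30 (SE 0.19).

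Of the later enzymes, Lss, which closes the ring to lanosterol, differed by -0.44 (SE 0.36) and spread from 6.33 to 8.01 within the wild-type group, which covered every transgenic value (6.76 to 7.26). Cyp51, the lanosterol demethylase, differed by -0.06 (SE 0.20). Nsdhl, an enzyme of sterol demethylation, had the largest positive difference of the 12 enzymes, 0.39 (SE 0.24), but its dimmer spot gave -0.11 (SE 0.20). Hsd17b7, a sterol reductase, differed by 0.04 (SE 0.28) and Dhcr7, which completes cholesterol, by 0.08 (SE 0.16).

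Of the 5 regulators 0 passed (limma; 1 lower at an unadjusted p under 0.05), and their median difference was -0.08. Insig1, which retains Scap and is itself an SREBP target, stood at 8.68, 8.39, 8.25 and 7.60 across wild-type mice 1 to 4, against 7.67, 7.93, 7.68 and 7.53 across transgenic mice 1 to 4. Wild-type mouse 4 lay among the transgenic values and the other 3 wild-type mice above all of them. Its difference was -0.52 (SE 0.23, limma adjusted p = 0.545), and without wild-type mouse 4 it was -0.74 (limma adjusted p = 0.196). Srebf1, which encodes the SREBP mainly acting on fatty acid genes, differed by -0.32 (SE 0.18), with transgenic mouse 4 lowest at 6.98. Srebf2, whose product acts mainly on sterol genes, differed by 0.09 (SE 0.13), Scap by -0.08 (SE 0.12) and Insig2 by -0.06 (SE 0.11).

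Among 11 measured genes of a further sterol list, 0 passed over all genes (2 at an unadjusted limma p under 0.05, both higher), with a median of 0.04. Stard4, a carrier that moves cholesterol between membranes, stood at 9.45, 9.73, 9.58 and 9.40 across wild-type mice 1 to 4, against 10.07, 10.12, 10.33 and 9.999 across transgenic mice 1 to 4, with a gap of 0.26 between the groups. Its difference was 0.59 (SE 0.13, limma adjusted p = 0.193). Tm7sf2, a sterol reductase, differed by 0.30 (SE 0.13), Msmo1, a sterol oxidase, by -0.25 (SE 0.16) and Pmvk, phosphomevalonate kinase, by -0.45 (SE 0.30).

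Promoter stretches are shown for the entry enzyme Hmgcs1 and for Idi1 and Insig1, whose transgenic means lay lower, and for Pltp, whose mean lay higher. They are the 250 bases before the start site in RefSeq's GRCm38.p6 at chr13:119690101-119690350 (plus strand, Hmgcs1), chr13:8885356-8885605 (plus strand, Idi1), chr5:28071162-28071411 (plus strand, Insig1) and chr2:164857709-164857958 (minus strand, Pltp). Capitals mark the same 4 motifs as for Abcb4.
Hmgcs1: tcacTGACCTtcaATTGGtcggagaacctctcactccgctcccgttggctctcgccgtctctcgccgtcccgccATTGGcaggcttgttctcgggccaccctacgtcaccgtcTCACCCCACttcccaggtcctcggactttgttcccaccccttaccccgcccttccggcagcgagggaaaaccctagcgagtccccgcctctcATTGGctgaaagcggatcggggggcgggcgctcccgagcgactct
Idi1: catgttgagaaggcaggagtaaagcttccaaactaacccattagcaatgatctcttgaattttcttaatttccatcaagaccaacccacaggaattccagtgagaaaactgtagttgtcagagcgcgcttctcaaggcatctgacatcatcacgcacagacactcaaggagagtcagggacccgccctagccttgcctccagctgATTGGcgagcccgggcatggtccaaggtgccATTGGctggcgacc
Insig1: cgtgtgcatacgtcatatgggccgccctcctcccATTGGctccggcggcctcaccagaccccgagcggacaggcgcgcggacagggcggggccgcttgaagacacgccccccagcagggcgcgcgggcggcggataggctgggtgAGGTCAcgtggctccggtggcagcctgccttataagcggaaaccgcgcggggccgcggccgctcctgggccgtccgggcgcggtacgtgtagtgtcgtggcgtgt
Pltp: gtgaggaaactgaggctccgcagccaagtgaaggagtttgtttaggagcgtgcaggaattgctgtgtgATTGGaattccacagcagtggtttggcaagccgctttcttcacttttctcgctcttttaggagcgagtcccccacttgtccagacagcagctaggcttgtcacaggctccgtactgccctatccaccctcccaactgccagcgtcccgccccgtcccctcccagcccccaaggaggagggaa
Hmgcs1 held the sterol regulatory element once, 3 CCAAT boxes and 1 half-site; CCAAT boxes bind NF-Y, a partner of SREBP. Idi1 held 2 CCAAT boxes, Insig1 held 1 with a half-site, and Pltp held 1. All 9 sterol enzymes with a window in the table held a CCAAT box in at least 1 window (9 of 11 windows, 81.8%), and 1 of the 9, Hmgcs1, held the sterol regulatory element. Of the 8 fatty acid genes with a window, 4 held a CCAAT box (4 of 9 windows, 44.4%). Over all windows the share with a CCAAT box was 33.8%. A match describes these letters and does not show that a factor binds there.

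**Figure D4:**
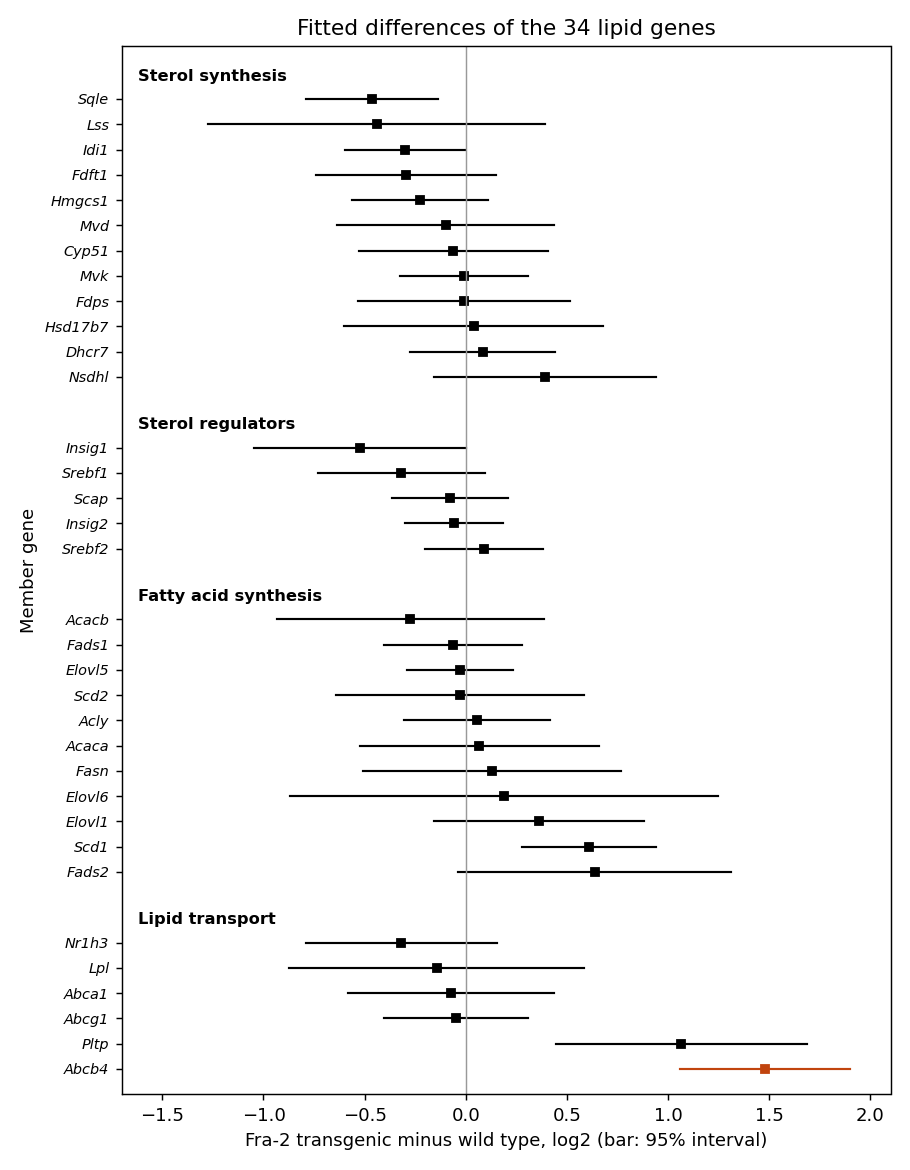
Fitted log2 difference (transgenic minus wild type) of each gene with its 95% interval, ordered within each group of genes; colour marks the gene whose adjusted p lay under 0.05. Abcb4 stands at 1.48 and Pltp at 1.07, most sterol and fatty acid genes lie within 0.5 of 0, and the intervals of Elovl6 and Lss are the widest.

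Among the 11 fatty acid genes 0 passed over all genes (by limma; 1 higher at an unadjusted p under 0.05), with differences from -0.27 to 0.64 and a median of 0.07. That median turned to -0.09 without transgenic mouse 1 and to -0.03 with other choices of spot (the mean of a gene's spots, or its most variable spot), and reached 0.25 without transgenic mouse 4. Scd1, the desaturase that makes oleate and palmitoleate, stood at log2 levels of 14.61, 14.38, 14.52 and 14.43 across wild-type mice 1 to 4, against 15.42, 15.06, 15.03 and 14.87 across transgenic mice 1 to 4. Every transgenic value lay above the wild-type range, by at least 0.26. The difference was 0.61 (SE 0.14, 95% interval 0.28 to 0.94), equal to 1.52-fold (limma adjusted p = 0.220). Its relative Scd2 differed by -0.03 (SE 0.27), with overlapping values of 13.54 to 14.27 and 13.21 to 14.29.

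Fads2 and Fads1 encode the desaturases that open the synthesis of long polyunsaturated fatty acids. Fads2 stood at 7.33, 7.68, 7.62 and 6.48 across wild-type mice, against 8.12, 7.94, 8.18 and 7.43 across transgenic mice, so that transgenic mouse 4 lay within the wild-type range and the other 3 above it. Its difference was 0.64 (SE 0.29, limma adjusted p = 0.573), while Fads1 differed by -0.06 (SE 0.15). Of the elongases, Elovl1, which acts on very long saturated chains, differed by 0.36 (SE 0.23), Elovl5, which acts on polyunsaturated chains, by -0.03 (SE 0.11) and Elovl6, which lengthens palmitate, by 0.19 (SE 0.46).

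The enzymes that supply and build palmitate showed no common direction. Acly, which splits citrate to acetyl-CoA, differed by 0.06 (SE 0.16), Acaca and Acacb, the acetyl-CoA carboxylases, by 0.07 (SE 0.26) and -0.27 (SE 0.29), and Fasn, the fatty acid synthase, by 0.13 (SE 0.28). Their limma adjusted p-values ran from 0.808 to 0.958. Acaca was read by 4 spots: both bright ones gave 0.07 and 0.05, the dim ones 0.70 (SE 0.41) and -1.06 (SE 0.41). Of 21 further genes of fatty acid and glycerolipid synthesis 0 passed (1 lower at an unadjusted limma p under 0.05), with a median of 0.06. The lowest p belonged to Elovl7, another elongase, at -0.34 (SE 0.11, limma adjusted p = 0.368), where all 4 transgenic values (7.94 to 8.01) lay below the wild-type range (8.23 to 8.43). Chka differed by -0.27 (SE 0.12), Gpam by -0.45 (SE 0.24) and Pcyt1a by -0.17 (SE 0.13); these enzymes act in phospholipid and glycerolipid synthesis.

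Some fatty acid genes varied widely between mice of a group. Elovl6 stood at 9.37, 7.84, 7.93 and 8.43 in wild-type mice 1 to 4 and at 9.71, 8.52, 7.98 and 8.11 in transgenic mice 1 to 4. Fasn stood at 9.81, 8.91, 9.29 and 9.08 and at 10.06, 9.41, 9.09 and 9.04 in the same order. In both genes the mouse numbered 1 was highest in its group, as it was in both groups for 6 of the 11 fatty acid genes (Acly, Acaca, Fasn, Elovl6, Scd1 and Scd2) and for 5.50% of all genes. Transgenic mouse 4 was lowest of its group in 10 of the 11 fatty acid genes, against 34.7% of all genes. Over all 34 genes, the mouse numbered 1 was highest in both groups for 12 and transgenic mouse 4 lowest for 22. Among the 12 sterol enzymes these counts were 4 and 4.

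Adipocyte markers were on average also highest in the mice numbered 1. The mean log2 level of 8 such markers was 9.30, 8.45, 8.04 and 7.35 in wild-type mice 1 to 4 and 9.06, 8.71, 7.80 and 7.95 in transgenic mice 1 to 4. Adipoq, the adipocyte hormone adiponectin, ranged from 6.78 to 10.08 in wild-type and from 8.35 to 10.18 in transgenic lungs, highest in the mice numbered 1. Lep, the fat hormone leptin, lay between 4.22 and 4.78 in all 8 mice, near the median of all spots (4.74). The mouse numbered 1 was highest in both groups for 5 of the 8 markers, and transgenic mouse 4 was lowest of its group for 1. None of the 8 markers passed between the groups (limma; 0 at an unadjusted p under 0.05, median difference 0.16). The part of fat tissue in the spread of the fatty acid genes was not tested.

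**Figure D5:**
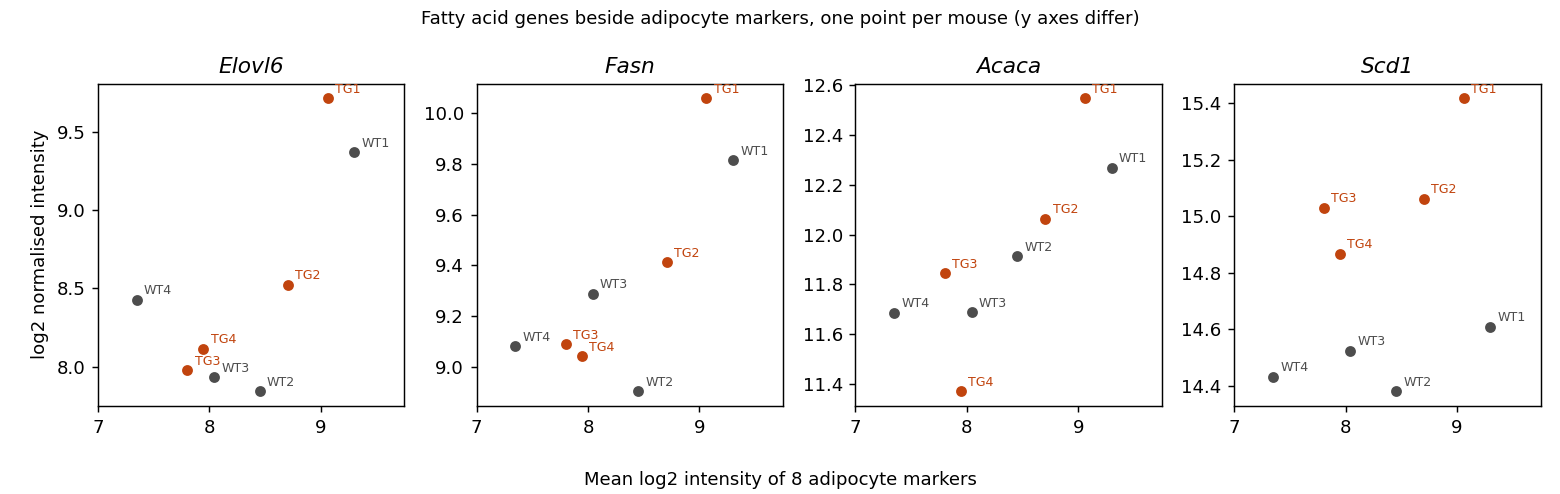
Log2 normalised intensity of Elovl6, Fasn, Acaca and Scd1 (y axes differ) against the mean log2 intensity of 8 adipocyte markers, with each point a mouse named by group and number. WT1 and TG1 are highest on both axes for Elovl6, Fasn and Acaca, while for Scd1 the 4 transgenic mice lie between 14.87 and 15.42, above all 4 wild-type mice.

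The values of other cell types beside these results were as follows. Of 8 endothelial markers 0 passed (limma; 2 higher at an unadjusted p under 0.05, Emcn by 1.18 and Tie1 by 0.57), and their mean level was 11.86 to 12.35 in wild-type and 12.34 to 12.73 in transgenic mice. Of 10 alveolar type 2 markers 0 passed (limma; 0 at an unadjusted p under 0.05), with means of 14.00 to 14.31 and 13.88 to 14.29. In 4 of these 10 (Sftpc, Sftpd, Sftpa1 and Sftpb) at least 1 mouse was at the top of the scanner's scale, as it was for Chil3 among the macrophage markers and Inmt among the fibroblast markers, so a difference in them could not be read fully. Of 9 alveolar macrophage markers Marco fell (log2 difference -2.08) and the other 8 did not pass, though all 8 differences were positive. The median of the 9 was 0.28, and 1 of them, Itgax, was higher at an unadjusted limma p under 0.05 (by 0.62). Their mean level, Marco included, was 11.40 to 12.30 in wild-type and 11.82 to 12.12 in transgenic mice. Of 8 fibroblast markers 0 passed (limma; 1 at an unadjusted p under 0.05), with means of 11.82 to 11.96 and 11.57 to 12.02. The 8 natural killer and T cell markers went both ways: 2 fell, Gzma (log2 difference -3.97) and Ncr1 (-2.12), and 0 rose. At an unadjusted limma p under 0.05, 4 were lower (Gzma, Ncr1, Klrb1c by -2.01 and Nkg7 by -0.93) and 4 higher (Cd5 by 1.40, Cd3d by 1.26, Lat by 1.15 and Cd3e by 0.41). Their mean level, taken over members that differed in opposite directions, was 8.35 to 9.14 in wild-type and 7.97 to 8.50 in transgenic mice. Of 6 liver markers 0 passed (limma; 0 at an unadjusted p under 0.05), with means of 5.43 to 5.73 and 5.20 to 5.58, and Alb lay between 3.85 and 5.17. The part of any of these cells in the rise of Abcb4 was not tested.

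All 34 genes lay above the median of all spots in every mouse and none reached the top of the scale. Fosl2 itself was read by 2 spots with opposite differences, and neither passed over all spots. The brighter differed by -0.75 (SE 0.31), with groups that overlapped. The dimmer stood at 3.44, 4.41, 4.65 and 5.58 across wild-type mice 1 to 4, against 6.35, 6.98, 6.68 and 7.85 across transgenic mice 1 to 4, and these groups did not overlap. Its fitted difference of 2.45 (SE 0.47, limma adjusted p = 0.153 over all spots) is not exact, since 3 of the 4 wild-type values lay under the median of all spots. With spots that differ in direction, the genotype labels are not settled by them. Of the 13 lipid genes with over 1 spot, 8 had spots that all differed in the same direction and 5 did not (Acaca, Acly, Hsd17b7, Mvk and Nsdhl). Of the 33 genes that did not pass, 28 had a 95% interval of the difference within 1 on the log2 scale and 13 within 1.5-fold in either direction. A difference beyond 1.5-fold is thus not excluded by the interval for the other 20 of the 33.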

How the data were processed

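Linear normalised intensity was deposited for 62976 spots per array. Per the submitters' processing notes, R 2.15.1 and limma 3.14.4 were used; how background and scale were set is not stated there. Each array had a median of 26.6, so the 8 arrays share a scale. RNA was labelled with Cy5 per the labels. Spots were named from the platform annotation (31465 with 1 symbol, 31511 unnamed here), and 29050 were matched by RefSeq accession to GRCm38.p6 symbols. The brightest spot by mean log2 stood for each of 20863 genes. Log2 of the deposited intensity, without an offset, entered limma 3.58.1 (lmFit, eBayes; group only) in R 4.3.3, and p-values were adjusted by Benjamini-Hochberg over all genes. SE is the moderated standard error, folds are ratios of geometric means, and 95% intervals are unadjusted.

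The members and lists were chosen with earlier results of these data known. Named genes were all members, Fosl2, and the 4 genes with the smallest p in each of 3 further pathway lists (sterol, fatty acid and glycerolipid, lipid transport); neighbours of Abcb4 were added after their values were seen. Marker lists covered alveolar type 2 cells, alveolar macrophages, adipocytes, endothelium, fibroblasts, natural killer and T cells, and liver. The fit was first tested on simulated data, 4 against 4. Of the shifts added, 0% were called at 0.5 on the log2 scale, 38% at 1, 78% at 2 and 100% at 4. Differences as small as 0.5 would thus seldom pass here. Alternatives were offsets, other scalings, a filter on dim genes, other spot choices and variance models, a replicate block and left-out mice. Promoter motifs were counted in Python 3.11.15, and figures were drawn with matplotlib 3.10.9. Precision is limited by the number of arrays.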

Additional observations from a re-analysis of the deposited data

Results flagged for a closer look

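In 4 of the 110 groups of 4 values examined (55 named genes in 2 groups), 1 mouse stood far from the other 3 of its group; chance alone sets apart about 1 in 20 groups. Fdft1 was low in both mice numbered 4: wild-type mouse 4 had 9.17 against 9.80 to 9.85 in the other 3, and transgenic mouse 4 had 9.05 against 9.46 to 9.49. Lss was high in transgenic mouse 1, at 7.26 against 6.76 to 6.80. Dbf4, a neighbour of Abcb4, was high in transgenic mouse 4, at 6.86 against 6.12 to 6.23.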

How the results depend on the processing

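Over the 19 alternatives, Abcb4 kept its direction throughout (1.29 to 1.57). At an unadjusted limma p under 0.05, the count of the 34 genes ran from 3 to 5 higher and from 1 to 5 lower. The count of the 34 genes past the threshold was 1 in the fit reported and in 11 alternatives; it was 0 with the replicate block (Abcb4 limma adjusted p = 0.153) and 0 to 1 with single mice left out. The count over all genes, 45 in the fit reported, was 80 and 88 with offsets of 16 and 32, 71 with dim genes left out, 85 with a variance trend, 17 without both mice numbered 4, 5 with the replicate block, and 17 to 38 with single mice left out. Deviations of same-numbered mice from their group means had correlations of 0.14, -0.02, 0.14 and 0.08 over 21504 named spots. Between differently numbered mice they ran from -0.18 to 0.11. The labels name no pairing, and these few correlations cannot tell whether same-numbered mice shared a handling step. The median of the 5 regulators was -0.24 with the most variable spot of each gene. Scarb1 passed in 1 alternative, the variance trend (limma adjusted p = 0.0465). The medians of the sterol enzymes (-0.30 to 0.03), fatty acid genes (-0.09 to 0.25) and transport genes (-0.16 to 0.08) each moved by less than the spread between mice. Among 1045 values of the 55 named genes under an alternative, 1027 kept their side of the threshold and moved by less than that spread, 8 lost a call (all Abcb4), 1 gained one and 9 moved more. Many of these values could hardly move. The variance models, the replicate block and the filter on dim genes leave a fitted difference as it is, and the other scalings nearly so. Other spot choices leave genes with 1 spot unchanged. The count of 1027 is thus no measure of robustness. The causes were not tested. Both other scalings left the count at 45, since the arrays already shared a scale.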
